A study of Mus musculus with 16 samples.

Results

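The AP-1 immediate early factors are the 8 mouse genes Fos, Fosb, Fosl1, Fosl2, Jun, Junb, Jund and Atf3, chosen by gene symbol from 19505 measured genes. Each was read by 1 feature of the array, and all 8 were kept on all 16 arrays with no filter on dim signal. AP-1 is a family of paired DNA-binding proteins of the leucine zipper class. Fos proteins pair with Jun proteins, Jun proteins also pair with each other, and Atf3 pairs with Jun or with itself. Transcription of Fos, Fosb, Junb and Atf3 begins within minutes of calcium entry, growth factors, cytokines or cell stress and does not need new protein, which is why these genes serve as marks of recently stimulated cells. In neurons Fos is widely read as a trace of firing, and in the olfactory mucosa immune and supporting cells can carry the same transcripts.

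Olfactory mucosa came from 24 S100a5-tauGFP mice on the C57BL/6 strain, of both sexes and 7 to 12 weeks old, in which a green fluorescent reporter reads the S100a5 gene, and every group carries this allele. The mice spent 40 h singly in clean air at 3.1 L/min, and from 26 h onward received 10 s pulses every 20 min. The pulses held whiskey lactone, a scent compound that oak gives to spirits, in the odor groups, and filtered air in the vehicle groups. Cells from 3 mice were pooled and sorted by fluorescence, so that 8 pools gave 4 groups of 4 arrays: odor titled GFP+, odor titled GFP-, vehicle titled GFP+ and vehicle titled GFP-. Replicates are separate pools of mice, and the arrays hold mixed cells, so a lower number of cells of a type and less RNA per cell cannot be told apart.

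The titles and the cell type field name the fraction in opposite ways on all 16 arrays. S100a5 itself, the calcium-binding protein gene behind the reporter, averaged 15.24 ± 0.30 log2 units in the odor arrays titled GFP+ and 16.58 ± 0.13 in those titled GFP- (SD, n = 4 each). In vehicle pools it averaged 15.28 ± 0.27 in arrays titled GFP+ and 16.51 ± 0.19 in those titled GFP- (SD, n = 4 each). It was lower in the array titled GFP+ of all 8 pools, which goes against the titles. Groups are called by their titles here; under the cell type field every fraction difference turns its sign, as does the difference of the contrasts between odor and vehicle. Odor differences within a fraction keep their sign, although that field gives the fraction its other name. Omp, the marker protein gene of mature olfactory neurons, lay between 18.43 and 18.83 on every array, so both fractions held neuronal RNA. Values are log2 signals, and the median of the negative control features, used as background, lay between 4.98 and 5.59. Their 95th percentile was higher, at 9.09 to 10.11. Fosl1 on every array, and Fosb, Fosl2 and Junb on every array titled GFP-, lay under that percentile. So did some arrays of Fos and Atf3 titled GFP- and of Fosl2 titled GFP+. Levels and folds that rest on such signals are less certain. Signals of different genes come from different probes and are not compared with each other.

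The promoters of 4 members are shown because these genes parted the fractions and the pools to different degrees. They are the 120 bases before the RefSeq transcription start in build GRCm38.p6, written on the strand of the gene. Capitals mark a CRE core (TGACGT or its complement), the variant AP-1 site TGACATCA, or a TATA element (TATAAA).
Fos, chr12:85473770-85473889, plus strand: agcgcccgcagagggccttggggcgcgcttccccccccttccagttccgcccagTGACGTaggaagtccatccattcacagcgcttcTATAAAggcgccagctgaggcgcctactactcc
Junb, chr8:84978749-84978868, minus strand: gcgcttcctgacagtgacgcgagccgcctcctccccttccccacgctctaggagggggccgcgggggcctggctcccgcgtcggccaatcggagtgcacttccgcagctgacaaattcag
Atf3, chr1:191183334-191183453, minus strand: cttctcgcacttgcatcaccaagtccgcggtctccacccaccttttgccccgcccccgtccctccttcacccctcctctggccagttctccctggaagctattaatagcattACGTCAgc
Jun, chr4:95052223-95052342, minus strand: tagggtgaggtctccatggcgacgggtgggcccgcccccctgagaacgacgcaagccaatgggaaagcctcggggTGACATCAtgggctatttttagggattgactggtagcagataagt

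The RefSeq table held a promoter for 7 of the 8 members, and Fosl1 is the one without an entry. For Fosb the start in that table lies inside the annotated gene, so its window is not that of the outermost transcript and is not printed. Windows of 250 bases before to 50 after the start were searched on both strands. The Fos window held a CRE core at -66 to -61 and a TATA element at -33 to -28. The Atf3 window held a CRE core on the opposite strand at -8 to -3, and the Jun window held TGACATCA at -45 to -38. In Junb the letters TATAAA lay at 1 to 6, just inside the annotated transcript. These are matches of letters and not shown sites. Among 32851 mouse promoters of the same length, 7.51% held the CRE core, 3.62% TGACATCA and 13.6% TATAAA. The canonical AP-1 site TGACTCA (5.20% of promoters), the full CRE TGACGTCA (1.79%, a longer form of the core) and the serum response element's CArG box (1.63%) matched in none of the 7 windows. Bases further than 250 before the start were not searched, so sites that lie there would have been missed. The genes are therefore not shown to lack these elements.

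The sort parted the AP-1 genes strongly and unevenly. Fos, Fosb and Junb were 17.4 to 42.4 times higher in arrays titled GFP+, Fosl2 and Atf3 2.16 to 6.27 times higher, and Jun by 1.38 to 1.46 times, while Jund did not pass the test. In the odor pools 7 of the 8 members were higher and 0 lower at an adjusted p under 0.05 (limma), against 12.8% of all genes higher and 14.7% lower. In the vehicle pools 6 were higher and 0 lower, against 12.3% of all genes higher and 13.6% lower. The members' median log2 difference was 2.19 in odor and 1.62 in vehicle pools, where the medians over all genes were -0.15 and -0.14. All 4 arrays titled GFP+ lay above all 4 titled GFP- for 6 members in odor (12% of all genes) and for 5 members in vehicle pools (11.2% of all genes). Whether the contrast differed between odor and vehicle was tested apart and is given further on.

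Fos, whose protein is the best known early response factor of the family, had log2 signals of 16.50, 14.51, 16.04 and 14.56 in odor pools 1 to 4 titled GFP+, and of 11.35, 9.18, 10.75 and 8.70 in the same pools titled GFP-. In vehicle pools 1 to 4 it had 16.11, 14.16, 13.88 and 14.42 in arrays titled GFP+ and 11.11, 9.25, 8.31 and 8.84 in those titled GFP-. No array titled GFP- came near any titled GFP+, and odor pools 1 and 3 and vehicle pool 1 stood high in both fractions. The fraction difference was 5.41 ± 0.14 (SE, 42.4-fold, limma adjusted p = 4.22e-11) in odor pools and 5.27 ± 0.14 (38.5-fold, 5.37e-11) in vehicle pools. Only 0.738% of genes in odor and 0.723% in vehicle pools had a more positive difference. Within single pools it ran from 5.15 to 5.86 in odor and from 4.91 to 5.58 in vehicle pools, so the gap stayed much the same while the level moved.

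Fosb encodes a close relative of Fos with a spliced, long-lived form; the array feature does not tell the forms apart. It had 14.16, 11.85, 13.95 and 11.94 in odor arrays titled GFP+ and 9.25, 7.09, 8.04 and 7.87 in odor arrays titled GFP-. In vehicle arrays it had 13.96, 10.48, 9.99 and 11.34 when titled GFP+ and 8.81, 6.68, 6.24 and 6.52 when titled GFP-. In arrays titled GFP+ the same 3 pools were high as for Fos; in those titled GFP- odor pool 1 and vehicle pool 1 were high and odor pool 3 was not. The fraction difference was 4.91 ± 0.28 (SE, 30.1-fold, limma adjusted p = 2.38e-08) in odor pools and 4.39 ± 0.28 (20.9-fold, 7.60e-08) in vehicle pools.

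Fosl2 encodes Fra-2, a Fos family protein without the strong activation domain of Fos. Its odor arrays titled GFP+ read 9.48, 7.42, 9.17 and 7.30, and those titled GFP- 5.58, 5.86, 5.70 and 5.63. Its vehicle arrays titled GFP+ read 9.44, 7.34, 7.27 and 7.46, and those titled GFP- 6.06, 5.27, 5.48 and 6.18. The arrays titled GFP- sat close to background, and 2 of the 4 vehicle ones were not above it. The groups did not overlap, with differences of 2.65 ± 0.40 (SE, 6.27-fold, limma adjusted p = 0.000218) in odor pools and 2.13 ± 0.40 (adjusted p = 0.00142) in vehicle pools, or 4.15-fold there with the 2 dim arrays set to background.

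Fosl1, the gene of Fra-1, was dim and hardly parted. It had 7.65, 7.89, 7.62 and 6.94 in odor arrays titled GFP+ and 6.82, 6.76, 6.95 and 6.74 in odor arrays titled GFP-. Vehicle arrays gave 7.34, 6.68, 7.03 and 7.29 when titled GFP+ and 7.16, 7.27, 6.92 and 6.93 when titled GFP-. In odor pools only pool 4 titled GFP+ fell among the arrays titled GFP-, and in vehicle pools the fractions overlapped, at 6.68 to 7.34 in arrays titled GFP+ and 6.92 to 7.27 in those titled GFP-. In odor pools the difference of 0.70 ± 0.20 (SE, 1.63-fold, limma adjusted p = 0.0222) passed, but it missed the threshold without odor pool 1, 2 or 3 (0.66, 0.56 and 0.71, adjusted p = 0.0821, 0.102 and 0.0652). It was also lost with median centring (0.32, adjusted p = 0.160) and was -0.29 with housekeeping centring (adjusted p = 0.214). In vehicle pools it was 0.01 ± 0.20 (limma adjusted p = 0.968), with a 95% interval from -0.43 to 0.46. With housekeeping centring it was -0.90 there (limma adjusted p = 0.00102). The 12 housekeeping genes were themselves parted by the sort, with 6 higher and 0 lower in odor pools and 5 higher and 1 lower in vehicle pools.

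**Figure D1:**
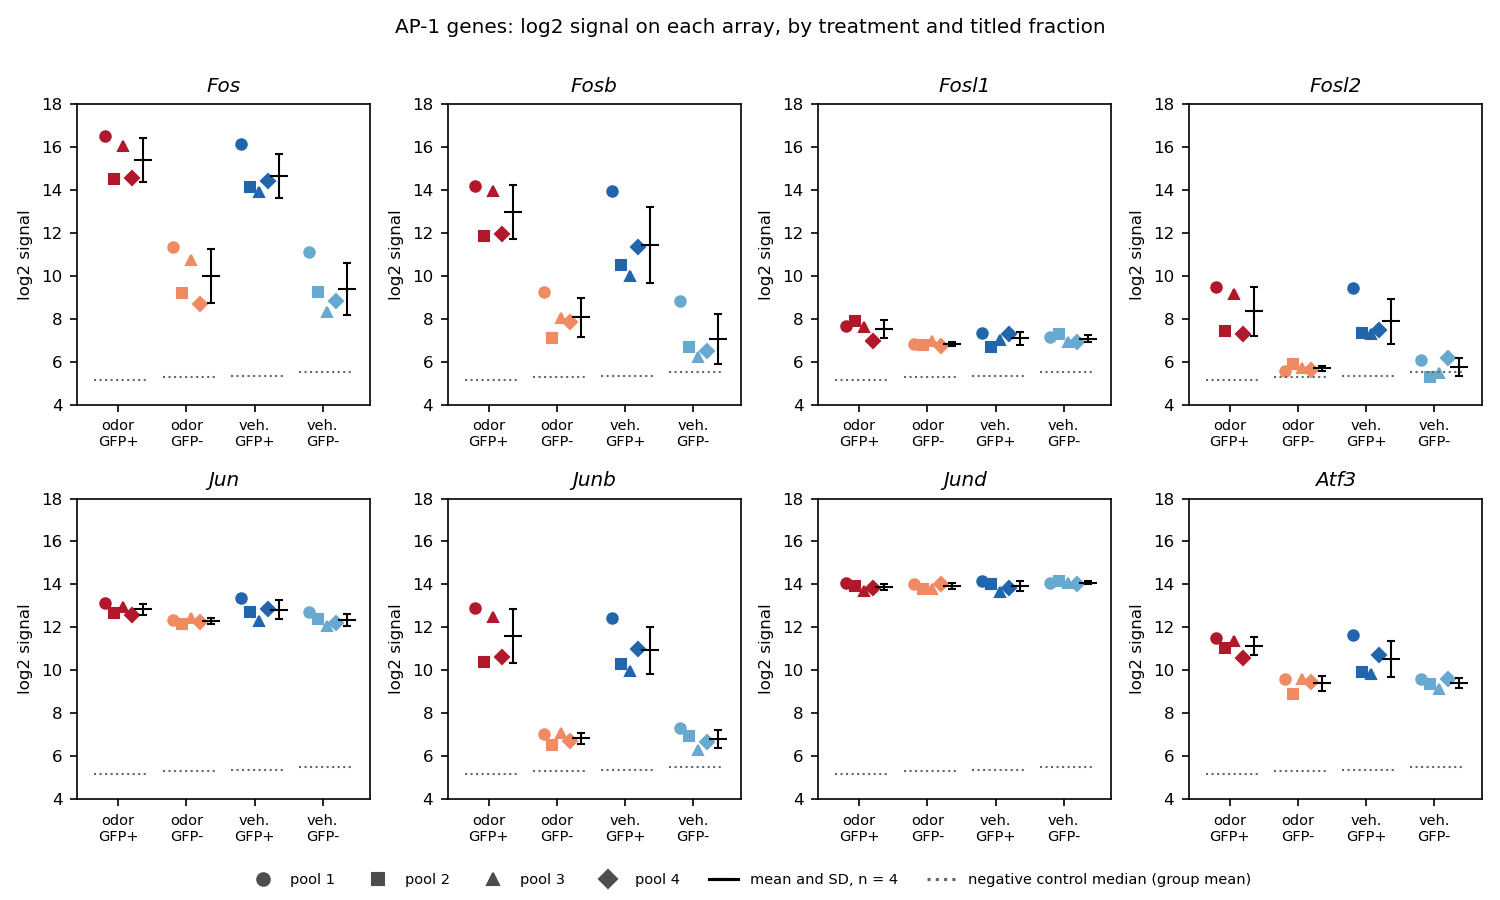
Log2 signal (vertical axis) of each AP-1 gene on the 16 arrays, by treatment and titled fraction (horizontal axis); symbols are the pools, the black bar is the mean with SD (n = 4) and the dotted line the negative control median. Fos, Fosb, Fosl2, Junb and Atf3 lie higher in all arrays titled GFP+ than in any titled GFP- of the same treatment, whereas Jund shows no such gap and Fosl2 titled GFP- sits at background.

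Among the Jun genes, Junb stood out. Its protein pairs with Fos proteins and can restrain Jun at shared targets. Junb had 12.90, 10.38, 12.47 and 10.63 in odor arrays titled GFP+ and 7.04, 6.51, 7.05 and 6.72 in odor arrays titled GFP-. In vehicle arrays it had 12.45, 10.31, 9.98 and 10.97 when titled GFP+ and 7.29, 6.94, 6.31 and 6.68 when titled GFP-. Odor pools 1 and 3 and vehicle pool 1 were again the high ones in arrays titled GFP+, and the ranges of the fractions lay far apart. The difference was 4.76 ± 0.34 (SE, 27.2-fold, limma adjusted p = 2.27e-07) in odor pools and 4.12 ± 0.34 (17.4-fold, 9.47e-07) in vehicle pools.

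Jun, the founding member and strongest activator of the Jun group, changed little. It had 13.12, 12.68, 12.95 and 12.60 in odor arrays titled GFP+ and 12.33, 12.14, 12.45 and 12.26 in odor arrays titled GFP-. In vehicle arrays it had 13.39, 12.70, 12.32 and 12.85 when titled GFP+ and 12.72, 12.40, 12.04 and 12.22 when titled GFP-. The fractions did not overlap in odor pools and overlapped in vehicle pools, although the array titled GFP+ was the higher within every pool. The difference was 0.54 ± 0.10 (SE, 1.46-fold, limma adjusted p = 0.00157) in odor pools and 0.47 ± 0.10 (1.38-fold, 0.00499) in vehicle pools. This call hung on the scaling: with median centring it was 0.16 in odor and 0.10 in vehicle pools (adjusted p = 0.165 and 0.395), and with housekeeping centring -0.45 in each.

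Jund, the most constantly expressed Jun gene in most tissues, had 13.68 to 14.06 in odor arrays titled GFP+ and 13.80 to 14.03 in odor arrays titled GFP-. Its vehicle arrays had 13.65 to 14.17 when titled GFP+ and 14.01 to 14.15 when titled GFP-. All 4 groups overlapped. The differences of -0.03 ± 0.09 (SE, limma adjusted p = 0.805; 95% interval -0.23 to 0.16) in odor and -0.16 ± 0.09 (adjusted p = 0.221; -0.35 to 0.04) in vehicle pools did not pass. They became -0.41 and -0.53 with median centring, and -1.03 and -1.07 with housekeeping centring, all past the threshold.

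Atf3, a stress-induced factor that often represses its targets, was parted moderately. It had 11.51, 11.02, 11.36 and 10.56 in odor arrays titled GFP+ and 9.61, 8.89, 9.59 and 9.45 in odor arrays titled GFP-. Vehicle arrays gave 11.65, 9.93, 9.80 and 10.71 when titled GFP+ and 9.58, 9.36, 9.10 and 9.60 when titled GFP-. The fractions did not overlap in either treatment, and in vehicle pools 2 and 3 they came close. The difference was 1.73 ± 0.22 (SE, 3.31-fold, limma adjusted p = 5.86e-05) in odor pools and 1.11 ± 0.22 (2.16-fold, 0.00242) in vehicle pools; with housekeeping centring the vehicle value was 0.20 (adjusted p = 0.399).

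**Figure D2:**
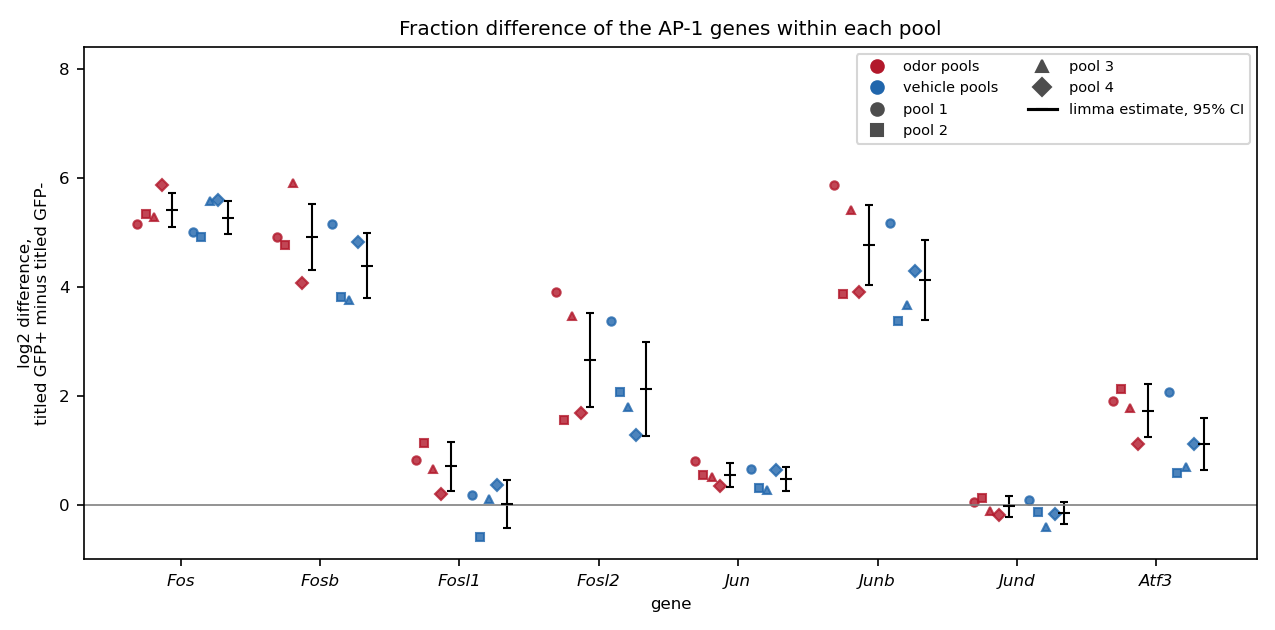
Log2 difference, titled GFP+ minus titled GFP- (vertical axis), of each AP-1 gene within each pool, odor pools left of vehicle pools, with the limma estimate and its 95% interval in black. Fos, Fosb and Junb lie between 3.37 and 5.91 in all 8 pools, and Jund lies around 0. The small Jun and Fosl1 differences turn negative with housekeeping centring, which rests on genes that the sort itself parted.

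By group mean, odor arrays titled GFP+ came first for 7 of the 8 members, all but Jund. For Fos, Fosb and Junb the order then ran vehicle titled GFP+, odor titled GFP- and vehicle titled GFP-. For Fosl2 and Atf3 the last pair stood the other way round. In these 5 genes only the step between the fractions was free of overlap; the odor and vehicle groups of a fraction overlapped in each. For Fosl1, Jun and Jund every neighbouring pair of groups overlapped.

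The study exposed mice to whiskey lactone to find neurons that answer it, so the AP-1 genes were also set against treatment. No member passed the test in any of these comparisons. In arrays titled GFP+ 0 of 8 members passed (limma; 0.00513% of all genes did) and 2 had an unadjusted p under 0.05 (4.88% of all genes did). Fosb was higher by 1.53 ± 0.72 in odor arrays (SE, 95% interval 0.03 to 3.04, unadjusted p = 0.0465, adjusted p = 1.00), and 0.0256% of genes had a more positive difference. Such a rank takes no account of spread, and only 0.0615% of genes spread more within groups than Fosb. Its estimate moved between 1.05, without vehicle pool 3, and 2.37, without vehicle pool 1. Fosl1 was the other, at 0.44 ± 0.21 (unadjusted p = 0.0485, adjusted p = 1.00). Fos stood at 0.76 ± 0.61 with a 95% interval from -0.52 to 2.04, Junb at 0.67 ± 0.50, Atf3 at 0.59 ± 0.31 and Fosl2 at 0.47 ± 0.48. These values hung on single pools: without odor pool 1 Fos was at 0.39, Junb at 0.23 and Fosl2 at 0.09, and without vehicle pool 1 they were at 1.25, 1.18 and 0.99. Atf3 was at 0.35 without vehicle pool 3 and at 0.96 without vehicle pool 1. The differences were positive for 7 of 8 members, with a median of 0.53 (0.01 over all genes), and odor and vehicle arrays overlapped for all 8 (2.38% of all genes did not overlap). Other lists moved beside them in the same arrays. The 4 measured red cell genes had a median odor difference of 1.26, and 4 of 4 had an unadjusted p under 0.05. The 6 measured genes linked to activity in olfactory neurons had a median of 0.59 (3 of 6). S100a5, which is 1 of these 6, did not move, at -0.04 ± 0.14 (limma unadjusted p = 0.780). The 13 macrophage and antigen presentation genes had a median of -0.32 (3 of 13). None of these genes passed after adjustment (limma), and their part in the AP-1 differences was not tested.

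In arrays titled GFP- the odor differences of the members lay near 0 except for those of Fos and Fosb. Of the 8 members 0 passed (limma; 0% of all genes did), 0 had an unadjusted p under 0.05 (5.88% of all genes did) and 0 had groups that did not overlap (4.45% of all genes did not). Fos was at 0.62 ± 0.61 (SE, 95% interval -0.66 to 1.90) and Fosb at 1.00 ± 0.72 (-0.50 to 2.51). Those of the other 6 lay between -0.25 for Fosl1 and 0.03 for Junb. The median was -0.04, against 0.00 over all genes. The activity-linked neuron genes had a median of 0.47 here (3 of 6 with an unadjusted p under 0.05, 0 after adjustment), and S100a5 among them was at 0.07 ± 0.14. The intervals of Fos and Fosb still hold more than a 3-fold difference, so 4 pools a group do not show these genes to be alike in odor and vehicle.

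Whether odor changed the fraction contrast was tested as the difference of the contrasts. All 8 values were positive, with a median of 0.52 (0.00 over all genes), but 0 passed (limma; 0.00513% of all genes did). At an unadjusted p under 0.05 there was 1, Fosl1, against 3.27% of all genes. Fosl1 had 0.69 ± 0.29 (SE, unadjusted p = 0.0341, adjusted p = 0.999), Junb 0.64 ± 0.48 and Atf3 0.61 ± 0.32. For Fos the value was 0.14 ± 0.20 with a 95% interval from -0.29 to 0.57, the narrowest among the strongly parted members. The 4 red cell genes had a median of 1.38 in this comparison (4 of 4 with an unadjusted p under 0.05, 0 after adjustment). The odor comparisons share arrays with each other and with the fraction contrasts, so their signs are not separate evidence. The members also share pools. In arrays titled GFP+ odor pool 1 was the highest for 7 of 8 members and vehicle pool 1 for 8 of 8. Signs of different members are therefore not separate evidence either.

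**Figure D3:**
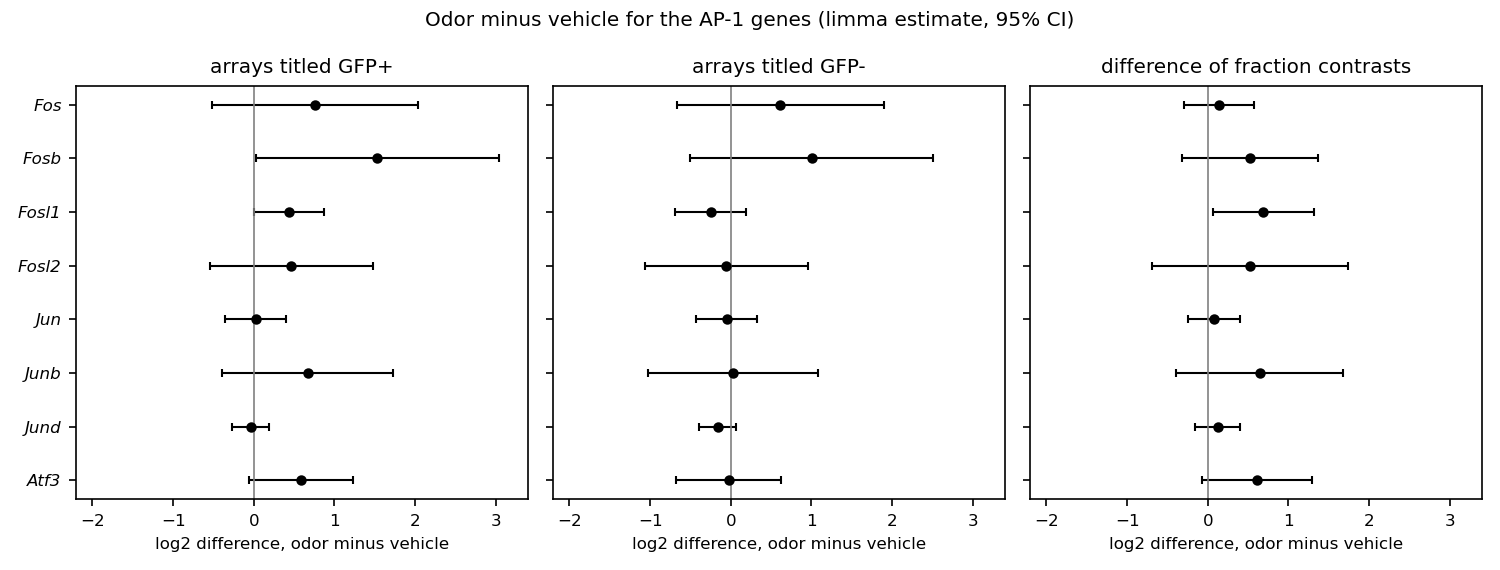
Odor minus vehicle log2 difference (horizontal axis) of each AP-1 gene (vertical axis) for the arrays titled GFP+, those titled GFP- and the fraction contrast, with limma estimates as points and 95% intervals as bars. The interval of Fosb in arrays titled GFP+ starts at 0.03, that of Fosl1 in the contrast at 0.06, and no member passed after adjustment.

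Pools that share a number can be set side by side. In arrays titled GFP+ the odor minus vehicle difference of Fos was 0.39, 0.36, 2.15 and 0.14 for numbers 1 to 4, and that of Fosb 0.20, 1.37, 3.96 and 0.60. Number 3 gave the widest gap for Fos, Fosb, Fosl2, Jun, Junb and Atf3, since odor pool 3 was high and vehicle pool 3 low. Fosb was the member with positive differences for all 4 numbers in both fractions; in arrays titled GFP- it had 0.45, 0.41, 1.81 and 1.35. Fos in arrays titled GFP- had 0.24, -0.06, 2.44 and -0.14. With the number as a block Fosb reached an adjusted p of 0.354 among the arrays titled GFP+ and 0.566 among those titled GFP-.

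Pools of 1 treatment differed widely in AP-1 signal. The SD within groups, pooled over the 4 groups, was 1.31 for Fosb and 1.13 for Fos, against a median of 0.26 over all genes. Only 0.0615% of genes spread more than Fosb and 0.123% more than Fos. Junb (0.88) and Fosl2 (0.81) were also among the most variable 1.00% of genes, whereas 36.7% of genes spread more than Jun (0.30), 45.8% more than Fosl1 (0.27) and 90.5% more than Jund (0.16). In arrays titled GFP+ odor pool 1 was the highest for 7 of 8 members and vehicle pool 1 for 8 of 8, while vehicle pool 3 was the lowest for 7 of 8.

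Fos moved by pool in both fractions, with an SD of 1.01 in arrays titled GFP+ and 1.24 in those titled GFP-, and the SD of its within-pool fraction differences was 0.34. Fosb had SDs of 1.53 in arrays titled GFP+ and 1.05 in those titled GFP-, and 0.74 for its within-pool differences. Junb and Fosl2 spread in arrays titled GFP+ (1.19 and 1.09) and much less in arrays titled GFP- (0.35 and 0.32), where their signal was near or not far above background. Atf3 had 0.67 in arrays titled GFP+ and 0.29 in those titled GFP-. Differences between these SDs were not tested.

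**Figure D4:**
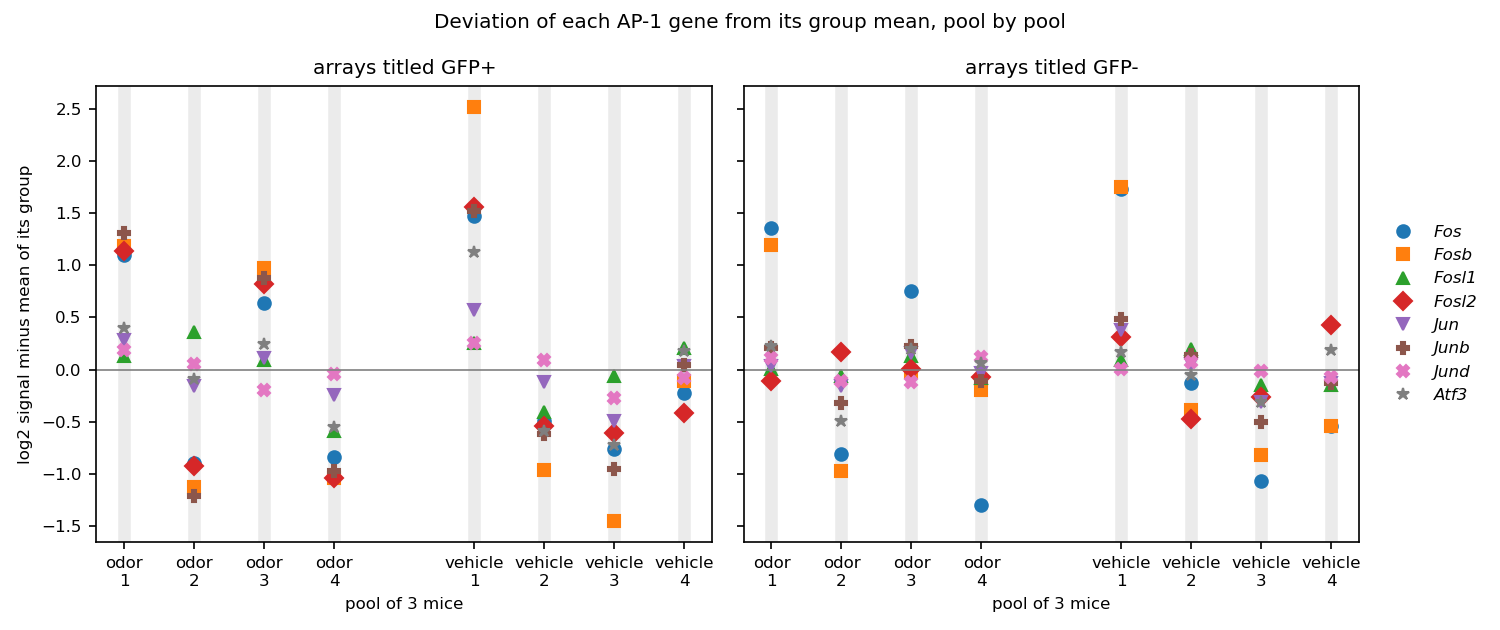
Log2 signal of each AP-1 gene minus the mean of its group (vertical axis) for the 8 pools (horizontal axis), in arrays titled GFP+ (left) and titled GFP- (right). Odor pools 1 and 3 and vehicle pool 1 lie above 0 for Fos, Fosb, Junb, Fosl2 and Atf3 on the left; on the right the wide spread is that of Fos and Fosb.

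Likeness to other genes was measured as the root mean square (RMS) difference over the 16 arrays after centring each gene on its own mean, as a description only. Nearest to Fos were Egr1, a zinc finger immediate early factor (0.43), the antiproliferative gene Btg2 (0.46) and Zfp36, whose protein promotes mRNA decay (0.52), where the median over all genes was 2.95. Fosb was nearest to Btg2 (0.68), Fos (0.68) and Junb (0.73). Junb was nearest to Cd69, an early activation antigen of lymphocytes (0.37), Ier3 (0.42) and the chemokine receptor-like gene Ccrl2 (0.43). Fosl2 lay nearest to the kinase gene Sik1 (0.38), Il25, a cytokine of brush-type cells (0.39), and Rasa3, a Ras GTPase-activating protein (0.39). For Atf3 the nearest were Phf11b (0.28), the gasdermin gene Gsdme (0.28) and Siglece, a sialic acid receptor of myeloid cells (0.29). The Wnt receptor gene Fzd1 (0.19), the tissue factor gene F3 (0.19) and the interleukin 4 receptor gene Il4ra (0.20) lay nearest to Jun. Il25, named for Fosl2, was not above background on any array titled GFP-. The median RMS over all genes was 0.51 for Jun, 0.97 for Atf3, 1.49 for Fosl2, 2.45 for Junb and 2.75 for Fosb. Values of different members are therefore not compared. This measure takes in the fraction difference; centred on group means, a view chosen after values were seen, Fos lay nearest to Egr1 (0.33), Nr4a2 (0.41) and Egr2 (0.43), and Junb lay 0.32 from Fosl2.

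Most other immediate early genes were parted in the same direction. Of the 22 in the list, 16 were higher in odor arrays titled GFP+ with 1 lower, against 12.8% of all genes higher and 14.7% lower. In vehicle pools 16 were higher and 0 lower, against 12.3% and 13.6% of all genes. The medians were 1.93 in odor and 1.56 in vehicle pools. Egr4 and Npas4 were not above background on any array, and Arc was above it only in odor arrays titled GFP+. Egr1 stood at 5.70 ± 0.19 in odor and 5.94 ± 0.19 in vehicle pools (SE), and Egr2 at 6.42 ± 0.23 and 5.81 ± 0.23. Arrays titled GFP+ of odor pools 1 and 3 and vehicle pool 1 also had the 3 highest summed signals of this list, between 16.6 and 16.8 log2 units.

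The list counts that follow stand beside 12.8% of all genes higher and 14.7% lower in odor pools, and 12.3% higher and 13.6% lower in vehicle pools. Upstream of AP-1, the MAP kinases carry signals from receptors to the Fos and Jun promoters, and dual-specificity phosphatases (DUSPs) switch them off. Of 19 measured MAP kinases and their activating kinases, 5 were higher and 4 lower in odor arrays titled GFP+, and 5 higher and 3 lower in vehicle pools. Map3k1, a kinase above the JNK branch, was not above background on any array titled GFP- and was at least 3.82-fold higher in odor and at least 2.47-fold higher in vehicle pools. Mapk13, a p38 kinase, was 4.36-fold and 3.86-fold higher. Among 11 DUSPs, 5 were higher and 2 lower in odor pools and 3 higher and 1 lower in vehicle pools, led by Dusp6, a phosphatase of ERK, at 2.08 ± 0.28 and 1.86 ± 0.28 (SE). A mixed list of 14 regulators held serum response factor genes, coactivators and calmodulin-dependent kinases. It gave 1 higher and 2 lower in odor and 3 higher and 2 lower in vehicle pools. The odor calls were kinase genes only, with Camk2b higher and Camk2a and Camk4 lower. In vehicle pools the same genes were called in the same directions, with Elk3 and Mrtfa higher besides.

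Of 17 other measured genes of leucine zipper proteins, 1 was higher and 3 lower in odor pools. In vehicle pools 0 were higher and 2 lower, and the medians were -0.09 in odor and -0.12 in vehicle pools. The 2 lower in vehicle pools were Atf5 and Nrl, and Nrl was not above background on any array. Jdp2, a Jun dimerization protein, was the one higher in odor pools (0.69 ± 0.15, SE, limma adjusted p = 0.00485), and Maff was lower there (-0.82 ± 0.20, adjusted p = 0.00871). Among 15 measured textbook targets of AP-1, 8 were higher in odor and 7 in vehicle pools, and 0 were lower in either, with medians of 0.78 and 0.46. Of these 15, Mmp3, Mmp10, Timp1, Tnc and Hbegf were not above background on any array. In arrays titled GFP- 10 of the 15 were not above it on any array, so counts and medians rest partly on background signal. The intermediate filament gene Vim was 86.8-fold higher in odor and 80.1-fold higher in vehicle pools, and Mmp9, a matrix protease that also stands in the neutrophil list, at least 272-fold and at least 198-fold higher. In the 3 odor comparisons 0 genes of these 6 lists passed (limma), and at most 3 genes of a list had an unadjusted p under 0.05. That count of 3 came from the 11 DUSPs in arrays titled GFP+ (4.88% of all genes there) and from the mixed list of 14 regulators in arrays titled GFP- (5.88%).

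Markers of several other cell types moved with the AP-1 genes between fractions, and those of others did not. All 10 measured neutrophil genes were higher in arrays titled GFP+ in both treatments; their summed log2 signal was 18.7 to 20.1 in arrays titled GFP+ and 10.3 to 12.2 in those titled GFP- of odor pools, and 19.1 to 19.8 and 10.4 to 12.0 in vehicle pools. Of the macrophage and antigen presentation list, the genes higher in arrays titled GFP+ were 12 of 13 in odor and 13 of 13 in vehicle pools, with sums of 15.4 to 17.2 (odor) and 15.6 to 16.7 (vehicle) in arrays titled GFP+ and of 9.50 to 10.6 and 9.79 to 10.7 in those titled GFP-. Mmp9, Camp, Tyrobp and Aif1 of these lists were not above background on any array titled GFP-. All 11 microvillar genes were higher in both treatments, as were 7 of 9 sustentacular and 5 of 7 lymphocyte genes. Of the genes counted as higher, Chat (microvillar) and Cd3g (lymphocyte) were not above background on any array. In arrays titled GFP- 6 of the 7 lymphocyte genes were not above it. Olfactory progenitor genes gave 4 of 8 higher in both treatments, with 1 lower in odor pools (Trp63, not above background on any array). Immature neuron genes gave 5 of 10 higher (with 1 lower in vehicle pools). Mature neuron genes were lower for 11 of 18 in odor and 10 of 18 in vehicle pools. The activity-linked neuron genes were lower for 5 of 6 in both treatments (with 1 higher in vehicle pools), with medians of -1.30 in odor and -1.17 in vehicle pools. All 4 red cell genes were higher, with medians of 3.71 in odor and 2.33 in vehicle pools. Ciliated respiratory genes were higher for 0 of 8, with 3 lower in odor and 4 lower in vehicle pools. In both treatments 1 of 9 endothelial and stromal genes and 1 of 5 ensheathing glia genes were higher, with 0 lower.

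The same lists differed between pools. Pool 1 of each treatment had the highest summed neutrophil, sustentacular, microvillar and macrophage signal in arrays titled GFP+. In arrays titled GFP-, where Fos differed among pools, the neutrophil sum was also highest in pool 1 of both treatments. It was 11.1 in odor pool 2 and 10.8 in odor pool 3. In vehicle pool 3, where Fos was lowest, it was 11.2 and next to the highest. The macrophage sum in the same fraction was 10.6, 9.50, 10.4 and 10.1 in odor pools 1 to 4, and 10.6, 9.79, 10.2 and 10.7 in vehicle pools 1 to 4. Genes linked to tissue dissociation, heat shock proteins and inhibitors, were higher in arrays titled GFP+ for 8 of 11 in both treatments (with 1 lower in vehicle pools), among them Hspa1a at 2.27 ± 0.14 in odor and 1.91 ± 0.14 in vehicle pools (SE). Their sum was highest in odor pool 1 and vehicle pool 4 of the arrays titled GFP+. The part of these cell types and of dissociation in the AP-1 differences was not tested.

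**Figure D5:**
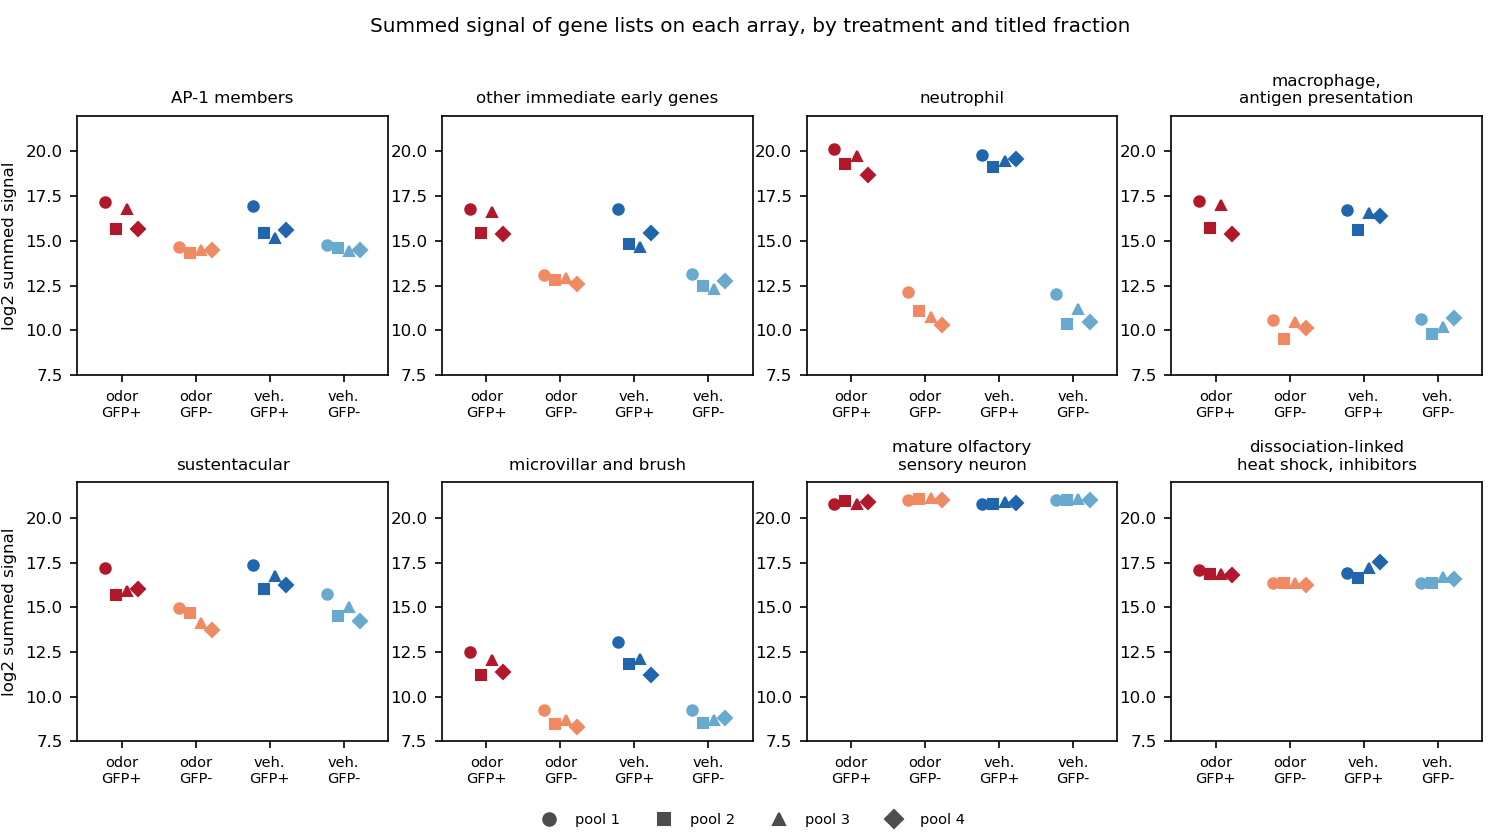
Log2 of the summed signal of 8 gene lists (vertical axis) on the 16 arrays by treatment and titled fraction (horizontal axis), with a symbol for each pool. The neutrophil sum lies between 18.7 and 20.1 in arrays titled GFP+ and between 10.3 and 12.2 in those titled GFP-, and the AP-1 and other immediate early sums are highest in odor pools 1 and 3 and vehicle pool 1 of the arrays titled GFP+.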

How the data were processed

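Biotin-labelled cRNA from 50 to 100 ng of total RNA was hybridised to 16 arrays, per the labels' protocols. The table deposited by the authors holds log2 signals (the scale was read from the values), and the submitters' processing notes name Affymetrix Expression Console; how it normalized or subtracted background is not given in the sources used here. Of 28846 features, 19572 had 1 gene symbol, and the brightest feature per gene left 19505 genes. Groups came from the titles. Limma 3.58.1 in R 4.3.3 (eBayes with a variance trend, two-sided, Benjamini-Hochberg over all genes, threshold 0.05) was fitted to the full set of 16, taking pools as a fixed block for the 3 fraction comparisons (6 residual degrees of freedom) and as a random block for the 2 odor comparisons (correlation 0.164, 12 degrees of freedom). The scripts were tested on simulated data. The number of arrays limits the precision. A gene not above the negative control median on any array of a group has only a bound there.

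Equally numbered odor and vehicle pools correlated in their deviations from group means, over all genes, at 0.198 to 0.279 in arrays titled GFP- (all 4 above 0.1) and at 0.0787 to 0.410 in arrays titled GFP+ (3 of 4 above 0.1); the labels do not say that a number marks a shared exposure. Named were all 8 members in each comparison, S100a5 and Omp as checks, up to 4 members of other lists with the largest called differences, and the 3 nearest genes of each member called in both fraction contrasts. The members and the lists were chosen with earlier results of these data known. Cyclic loess, 3 centrings, other blocks, a dim-gene filter, other feature rules, no variance trend and omission of each pool were tried as alternatives.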

Additional observations from a re-analysis of the deposited data

Results flagged for a closer look

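In 2 of the 32 sets of 4 arrays, 1 array lay far from the others by Dixon's ratio of the gap to the range; chance gives about 1 in 20. Fosb in vehicle arrays titled GFP- had a ratio of 0.82905, because pool 1 read 8.81 and the other pools 6.24 to 6.68. Fosl2 in vehicle arrays titled GFP+ had a ratio of 0.91051, because pool 1 read 9.44 and the other pools 7.27 to 7.46. Both arrays come from vehicle pool 1, which was also the highest vehicle pool for all 8 members in arrays titled GFP+.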

How the results depend on the processing

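The count of members past the threshold stayed between 6 and 7 in odor and between 5 and 7 in vehicle pools, and at 0 in the odor comparisons, in every alternative run; these counts take both directions together. Housekeeping centring gave 5 higher and 2 lower (Jun and Jund) in odor pools and 4 higher and 3 lower (Fosl1, Jun and Jund) in vehicle pools, and median centring 5 higher and 1 lower (Jund) in each. Housekeeping centring turned the sign of Fosl1 (-0.29 in odor, -0.90 in vehicle pools) and of Jun (-0.449 in odor, -0.445 in vehicle pools), and no other alternative turned a called value. Housekeeping centring moves the median of all genes from -0.15 to -1.14 in odor and from -0.14 to -1.06 in vehicle pools. Median centring moves it to -0.53 and -0.51. The 12 housekeeping genes were themselves parted by the sort, with B2m at 4.87 in odor and 4.54 in vehicle pools. Cyclic loess and mature neuron centring each kept 7 members higher and 0 lower in odor pools, and 6 higher and 0 lower in vehicle pools. Of the 18 mature neuron genes, 11 were lower in odor and 10 in vehicle pools. Over all genes, 2502 were higher and 2860 lower in odor pools and 2406 and 2658 in vehicle pools. Median centring gave 14808 calls (1902 higher, 12906 lower) in odor and 14357 (1818 higher, 12539 lower) in vehicle pools, and housekeeping centring 18184 (1208 higher, 16976 lower) and 18035 (1193 higher, 16842 lower). Without a block the vehicle call of Jun was lost (adjusted p = 0.0858). With the replicate number as a block the calls over all genes were 2 in the difference of the contrasts, 11 for titled GFP+ and 13 for titled GFP-; it changed no member's call. Counts of 2 (difference of contrasts) and 3 (titled GFP-) came with housekeeping centring, and of 0 in arrays titled GFP+ without dim genes and, there and in the difference of contrasts, with no variance trend. Leaving out 1 pool gave 0 to 8 calls for titled GFP+ and 0 to 2 for titled GFP-. The causes were not tested.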
